A study of Mus musculus with 12 samples.

Results

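The growth cone and migrating neuron genes described here are 10 mouse genes of the cytoskeleton and the surface of young neurons: Dcx, St8sia2, Dpysl3, Crmp1, Gap43, Basp1, Stmn1, Stmn2, Cd24a and Nrep. Their members on the array were all probe sets that the platform annotation gives one of these symbols, 21 of 22690. The genes had been chosen in part on the SMA vehicle signals themselves, for their rise over wildtype in SMA vehicle cords. That rise is given below as a description, with no test. Any other comparison of these genes with the SMA vehicle or wildtype arrays shares arrays with that choice. The p-values printed below for the single genes are thus not independent of it. RNA of spinal cord from 12 mice was measured, each mouse on its own array, at an age of 13 days. The 4 SMA ceftriaxone mice, a model of severe spinal muscular atrophy (SMA), had no intact mouse Smn allele (mSmn -/-) and received 200 mg/kg of the antibiotic ceftriaxone by intraperitoneal injection each day, beginning at day 5. The 4 SMA vehicle mice had the same genotype and received saline. The 4 wildtype mice received vehicle and carried mSmn+/−, so they had a single intact mouse allele. All 3 groups, of line 4299 on an FVB background, were SMN2+/+ and SmnΔ7+/+. They thus shared the transgene Tg(SMN2)89Ahmb, a copy of the human SMN2 gene, and Tg(SMN2*delta7)4299Ahmb, which makes a transcript without the exon that SMN2 mostly skips. The disrupted mouse allele is Smn1tm1Msd. The wildtype mice were therefore no transgene-free controls. The labels name both whole cords and lumbar cord and do not say which was put on the arrays, and the sex of each mouse is not stated.

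A growing axon ends in a growth cone, a motile structure in which actin filaments push the membrane forward and microtubules follow. Young neurons that migrate or extend axons make high amounts of proteins that bundle or dismantle microtubules, that link guidance cues such as semaphorins to the cytoskeleton, and that loosen adhesion between cells. Most of these genes are used before and around birth in the cord, are lowered as circuits mature, and are switched on again in neurons that regrow an axon.

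Windows of 250 bases before the RefSeq start sites (build GRCm38.p6) were read for 4 of the genes, 6 windows in all, to show the sequence in front of genes that moved together. The first window of Dcx and the windows of St8sia2 and Basp1 are printed because they run from the lowest GC content of the 6 windows (Dcx) to the highest (Basp1). Capitals mark the matches found, TATAAA (the TATA box) in Dcx and GGGCGG (the GC box) in the other two.
Dcx, chrX:143933220-143933469, minus strand: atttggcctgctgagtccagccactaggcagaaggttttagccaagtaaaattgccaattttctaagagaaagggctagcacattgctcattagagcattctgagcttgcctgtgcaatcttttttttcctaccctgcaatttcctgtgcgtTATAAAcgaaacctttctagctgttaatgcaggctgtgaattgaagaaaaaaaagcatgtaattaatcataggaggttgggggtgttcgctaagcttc
St8sia2, chr7:74013683-74013932, minus strand: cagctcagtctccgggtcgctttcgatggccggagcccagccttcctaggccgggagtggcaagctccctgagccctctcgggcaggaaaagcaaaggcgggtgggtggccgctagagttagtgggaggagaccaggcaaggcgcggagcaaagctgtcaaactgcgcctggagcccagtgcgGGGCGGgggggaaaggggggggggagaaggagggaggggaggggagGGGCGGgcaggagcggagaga
Basp1, chr15:25413765-25414014, minus strand: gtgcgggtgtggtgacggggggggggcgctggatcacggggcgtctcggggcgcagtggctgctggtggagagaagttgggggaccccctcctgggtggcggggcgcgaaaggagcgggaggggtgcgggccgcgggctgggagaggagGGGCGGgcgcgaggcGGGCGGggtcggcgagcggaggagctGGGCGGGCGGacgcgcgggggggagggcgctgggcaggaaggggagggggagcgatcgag
The GC content of these windows was 41.6% in Dcx, 68.8% in St8sia2 and 78.8% in Basp1, beside a median of 52.4% over 32851 windows of the same length. TATAAA, searched on both strands, was at 1 site of Dcx, which lies in both of its overlapping windows, and in 12.4% of all windows. GGGCGG, searched on both strands, was in the windows of 3 of the 4 genes (St8sia2, Crmp1 and Basp1) and in 32.7% of all windows. ACAAAG, a SOX core motif, was in windows of Dcx and Crmp1 and in 16.5% of all windows. The E-box spellings CAGCTG (13% of all windows) and CATCTG (14.4%) were in 0 of the 6 windows. None of the motifs searched was in the windows of all 4 genes, and a match of letters is not a bound site.

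The values are MAS5 signal intensities on a linear scale, and differences are of mean log2(signal + 16), which understates the change of dim probe sets. Smn1 matched the genotypes, at a mean of 7.28 ± 5.85 in SMA ceftriaxone, 4.22 ± 0.991 in SMA vehicle and 313 ± 70.1 in wildtype cords (SD, n = 4 each). Wildtype array 2 stood apart: its summed signal over 10 thymocyte markers was 38370, against 158 to 295 on the other wildtype arrays, and over 11 genes of dividing cells 30917 against 5767 to 5976. The thymocyte sum was also raised, far less, on SMA ceftriaxone array 2, at 532 against 120 to 201 on the other ceftriaxone arrays. Xist, the RNA that silences an X chromosome in females, read above 1000 on 4 SMA ceftriaxone, 2 SMA vehicle (arrays 1 and 4) and 1 wildtype array (array 3). The Y-linked Eif2s3y read 0.3 to 5 on these 7 arrays and 344.5 to 523.7 on the other 5, so the sexes were unequally spread over the groups. All 8 Hox genes of cord position measured were above the filter described below, while of the 2 forebrain genes measured Tbr1 stayed at or below 27.9 on every array and Neurod6 read up to 659. Of the 6 markers of dorsal root ganglion neurons on the array, Scn10a reached 32.7, Avil 85.5, Runx1 106.2 and Isl1 238.5 at most, while the brighter Prph ran from 720.2 to 1730.2 and Tac1 from 1381 to 3549.8, both genes that cord neurons also use. The Gapdh control probe sets at the 3 prime and 5 prime ends, a check of RNA quality, gave ratios that ran from 0.72 to 0.756 in SMA ceftriaxone, 0.733 to 0.757 in SMA vehicle and 0.745 to 0.761 in wildtype arrays.

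Dcx encodes doublecortin, which binds and stabilises microtubules in migrating neurons. Its signal by its brightest probe set, 1418141_at, was 498, 483, 548 and 400.3 on SMA ceftriaxone arrays 1 to 4, 1308, 1662, 2507 and 3203 on SMA vehicle arrays and 370.2, 276, 357 and 365 on wildtype arrays. The SMA vehicle arrays lay above all others with no overlap, and each ceftriaxone array lay above each wildtype array. The ceftriaxone mean, 482 ± 61.3, was 0.222 of the SMA vehicle mean of 2169.9 ± 853 (SD, n = 4 each), a log2 difference of -2.06 ± 0.22 (SE; limma adjusted p = 6.06e-05). Against the wildtype mean of 342 ± 44.3 the ceftriaxone cords were at 0.48 ± 0.22, which did not pass (limma adjusted p = 0.255). The second probe set, 1418139_at, held 435, 392, 369 and 247 in SMA ceftriaxone, 1447, 1550.2, 2453 and 2894 in SMA vehicle and 285, 192, 273 and 235 in wildtype cords. It gave the largest log2 difference of the 21 between the SMA groups, -2.45 ± 0.23 (limma adjusted p = 3.69e-05). Probe sets 1448974_at and 1418140_at were dim, with means of 55.0 and 39.7 in ceftriaxone, 209 and 88.8 in vehicle and 32.1 and 21.2 in wildtype cords. Both fell below the filter, and in the fit of all probe sets both were lower in ceftriaxone than in vehicle cords (limma adjusted p = 0.00377 and 0.0186). Dcx thus has 4 probe sets with the same order of group means.

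Dpysl3 and Crmp1 belong to the collapsin response mediator proteins, which bind tubulin and carry semaphorin 3A signals to the growth cone. Dpysl3 had, by 1454613_at, signals of 5106, 3244, 4194 and 2931 in SMA ceftriaxone, 8067, 9121, 9367 and 9688 in SMA vehicle and 2963, 1885, 2434 and 2545 in wildtype cords. The ceftriaxone arrays lay below every vehicle array (log2 -1.26 ± 0.16, limma adjusted p = 0.000135) and, with array 4 inside the wildtype range, higher on average than wildtype (log2 0.64 ± 0.16, limma adjusted p = 0.0481). That call ended in most alternatives, among them no filter (adjusted p = 0.0765), Xist as a covariate (0.176) and the fit without any one SMA vehicle array (0.0614 to 0.0718). Probe set 1415877_at had means of 1591 ± 213 in ceftriaxone, 5632 ± 1224 in vehicle and 898 ± 155 in wildtype cords, with no overlap between any pair of groups. Its ceftriaxone cords were lower than vehicle cords by limma (adjusted p = 3.69e-05) and higher than wildtype cords (log2 0.82 ± 0.17, adjusted p = 0.0188), a call that ended without SMA ceftriaxone array 3 (0.0679), without wildtype array 3 (0.0516) and with the Gapdh ratio as a covariate (0.0673). The third probe set, 1438789_s_at, of a kind shared by several transcripts, disagreed on the second point: 242, 251, 254 and 262 in ceftriaxone cords lay within the 277, 155, 294 and 224 of wildtype cords (log2 0.12 ± 0.16, limma adjusted p = 0.739). It did fall against the vehicle values of 759.5, 617, 744 and 785 (limma adjusted p = 6.06e-05).

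Crmp1, by its only probe set 1448289_at, had 4636, 3186, 4069 and 3587 in SMA ceftriaxone, 8828, 9669, 10048 and 10772 in SMA vehicle and 2477, 1430.1, 1814 and 1948 in wildtype cords. The 3 groups did not overlap, with the ceftriaxone cords between the others. The ceftriaxone mean was 0.394 of the vehicle mean (log2 -1.35 ± 0.15, limma adjusted p = 6.3e-05) and 2.02 times the wildtype mean (log2 1.02 ± 0.15, limma adjusted p = 0.00389). Of the 21 probe sets it had the largest difference between ceftriaxone and wildtype cords.

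At the cell surface, St8sia2 encodes the sialyltransferase that builds polysialic acid on the neural cell adhesion molecule, a modification that weakens adhesion. Probe set 1449843_at had 209, 156, 221 and 136 in SMA ceftriaxone, 469, 462, 652 and 852 in SMA vehicle and 108, 96, 120.3 and 127 in wildtype cords. Probe set 1420377_at had 173, 122, 183 and 139 in SMA ceftriaxone, 603, 544, 916 and 952 in SMA vehicle and 102, 62.3, 103 and 94.8 in wildtype cords. For both probe sets no arrays of different groups overlapped, and the ceftriaxone cords lay nearer to wildtype than to vehicle cords. The differences from vehicle were -1.65 ± 0.20 and -2.15 ± 0.20 on the log2 scale. That of 1449843_at passed (limma adjusted p = 8.95e-05). Probe set 1420377_at was above the filter only through the vehicle arrays, with a geometric mean of 117 over the other 8 beside a filter of 125. Its differences from vehicle and from wildtype are therefore given as a description. The differences from wildtype were 0.59 ± 0.20 and 0.68 ± 0.20, and that of 1449843_at did not pass (limma adjusted p = 0.119).

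Cd24a encodes a small glycoprotein on the surface of young neurons that is also abundant on developing lymphocytes. By 1448182_a_at its signals were 3273, 2959, 3456 and 3227 in SMA ceftriaxone, 5528, 6471, 7174 and 7514 in SMA vehicle and 2487, 4771, 2953 and 2777 in wildtype cords. The high wildtype value is array 2, the array with strong thymocyte markers, and the part of those cells in it was not tested. The ceftriaxone cords were lower than the vehicle cords (log2 -1.04 ± 0.17, limma adjusted p = 0.00047), and the other probe sets 1416034_at and 1437502_x_at fell too (limma adjusted p = 0.000687 and 0.00524). Against wildtype no Cd24a probe set passed, with log2 differences from -0.07 to 0.05. Without wildtype array 2 those of 1448182_a_at, 1416034_at and 1437502_x_at were 0.24, 0.29 and 0.18 (limma adjusted p = 0.137, 0.0702 and 0.39). Probe set 1437502_x_at was the only one of the 21 where SMA vehicle and wildtype arrays overlapped, as wildtype array 2 read 1768 and the lowest vehicle array 1535.

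Gap43 and Basp1 encode abundant proteins on the inner face of the growth cone membrane that regulate actin. Gap43 (1423537_at) had 4637, 2982, 4848 and 3658 in SMA ceftriaxone, 8265, 8992, 10699.8 and 10395 in SMA vehicle and 2605, 2147, 2554 and 2255 in wildtype cords. No groups overlapped. The ceftriaxone cords were at 0.42 of vehicle (log2 -1.27 ± 0.14, limma adjusted p = 6.32e-05) and 1.69 times wildtype (log2 0.73 ± 0.14, limma adjusted p = 0.0152). The call against wildtype ended in the fit of the 2 groups (adjusted p = 0.0641), with Xist as a covariate (0.0956) and without SMA ceftriaxone array 3 (0.0572). Basp1 (1428572_at) had 11788, 10345, 12006 and 11245 in SMA ceftriaxone, 13943, 15231, 15727 and 15874 in SMA vehicle and 9167, 6953, 8438 and 8954 in wildtype cords, again without overlap. Its differences were smaller, -0.42 ± 0.09 against vehicle and 0.44 ± 0.09 against wildtype on the log2 scale, and both passed (limma adjusted p = 0.00249 and 0.0163). For Basp1 too the call against wildtype ended under those 3 settings (adjusted p = 0.0788, 0.0954 and 0.0633), and with median centring (0.0825). Only 0.725% of all probe sets were brighter than this one on average, and for Gap43 the share was 4.32%. Whether brightness bears on the size of a difference was not tested.

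The stathmins bind free tubulin and destabilise microtubules, Stmn1 in dividing cells and neurons and Stmn2 in growing axons. Stmn1 had, by 1415849_s_at, 8645, 6490.4, 7460.1 and 6387 in SMA ceftriaxone, 10389, 11742, 12499.5 and 12774 in SMA vehicle and 6483, 8872, 7465 and 7034 in wildtype cords. The ceftriaxone and wildtype arrays overlapped, and wildtype array 2, where the genes of dividing cells were high, read highest of that group. The log2 difference of ceftriaxone from vehicle cords was -0.72 ± 0.11 by this probe set and -1.60 ± 0.28 by the dimmer 1448113_at (limma adjusted p = 0.00048 and 0.000884), so the probe sets differed in size and agreed in direction. Against wildtype they were at -0.04 ± 0.11 and -0.15 ± 0.28 and did not pass (limma adjusted p = 0.876 and 0.815), and both differences turn positive, at 0.04 and 0.11, without wildtype array 2.

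Stmn2 had, by 1423280_at, 11706, 10459, 11612 and 11181 in SMA ceftriaxone, 12604, 13803, 14149 and 14130.2 in SMA vehicle and 10097, 7482, 10289.5 and 9849 in wildtype cords. Here too the 3 groups did not overlap, though the steps are small for a probe set with only 0.72% of all others brighter. The log2 difference from vehicle was the smallest of the 21, -0.28 ± 0.09 (limma adjusted p = 0.0314), and it missed the threshold with no filter (adjusted p = 0.0548) and in other settings given in the closing section. The second probe set, 1423281_at, fell by 0.64 (limma adjusted p = 0.00129) on means of 7682 ± 716 in ceftriaxone and 11979 ± 1073 in vehicle cords. Neither passed against wildtype (limma adjusted p = 0.135 and 0.245).

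Nrep encodes a small protein found in regenerating and developing neurons and in other embryonic tissue. Its 1436736_x_at signals were 5761, 4856, 5660.1 and 4486 in SMA ceftriaxone, 7544, 8319.7, 8543 and 8952 in SMA vehicle and 4607, 3758, 4526 and 3988 in wildtype cords. The vehicle arrays stood above all others, while ceftriaxone array 4 fell inside the wildtype range. Against vehicle cords 1436736_x_at and 1450839_at were at -0.69 ± 0.10 and -0.78 ± 0.11 (limma adjusted p = 0.000196 and 0.000208). Against wildtype cords they were at 0.30 ± 0.10 and 0.31 ± 0.11 and did not pass (limma adjusted p = 0.106 and 0.133).

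**Figure D1:**
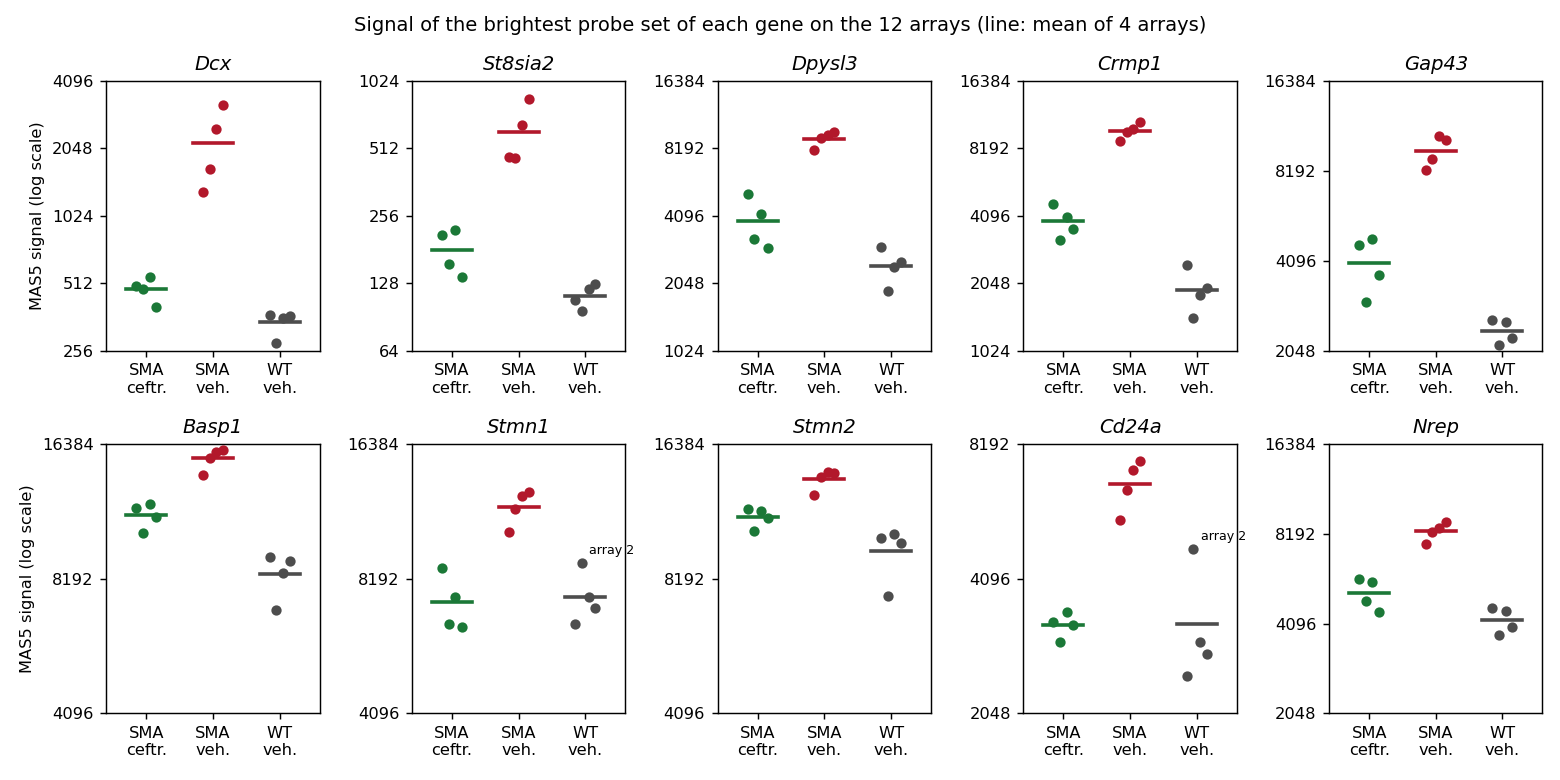
MAS5 signal of the brightest probe set of each gene (vertical axis, log scale, a different range in each panel) on the 4 arrays of SMA ceftriaxone, SMA vehicle and wildtype cords, with a line at each group's mean. The SMA vehicle points lie above all others in each of the 10 panels, and wildtype array 2 is the highest wildtype point for Stmn1 and Cd24a.

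Over all members, 18 of the 19 probe sets above the filter also had a mean above it on the 8 arrays that were not SMA vehicle. Each of these 18 was lower in SMA ceftriaxone than in SMA vehicle cords (limma adjusted p = 3.69e-05 to 0.0314). Of the 13575 probe sets tested, 17.7% were called lower and 18.3% higher. The exception, St8sia2 1420377_at, was lower too, which is given as a description. For all 21, the 4 ceftriaxone arrays lay below the 4 vehicle arrays, as they did for 23.3% of the probe sets tested. The median log2 difference of the 21 was -1.26, with a range of -2.45 to -0.28, beside a median of -0.01 over all probe sets tested. The SMA vehicle arrays of this comparison also entered the choice of the genes, so these counts are not independent of that choice. Since the tissue was measured in bulk, fewer cells of a type and less RNA per cell cannot be told apart.

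Markers of other cells moved with this difference, though not every gene of each list did. The summed signal of 7 oligodendrocyte markers was 93495 to 101530 in SMA ceftriaxone, 24850 to 50498 in SMA vehicle and 79388 to 125540 in wildtype cords. For 9 skeletal muscle markers the sums were 335 to 894 in ceftriaxone, 2759.5 to 6597 in vehicle and 765 to 2010.4 in wildtype cords. The 6 astrocyte markers summed to 38460 to 40423 in ceftriaxone, 22480 to 28365 in vehicle and 27669 to 44204 in wildtype cords. Aldh1l1 and Slc1a3 among them did not pass between the SMA groups (log2 0.06 and 0.01, limma adjusted p = 0.711 and 0.98). Both were higher in vehicle than in wildtype cords (log2 0.55 and 0.83, limma adjusted p = 0.0022 and 0.00156). The 6 microglial markers summed to 4797 to 6287 in ceftriaxone, 3516 to 4382 in vehicle and 4216 to 6197 in wildtype cords. The 6 dorsal root ganglion markers on the array summed to 2642 to 3548.5 in ceftriaxone, 4419 to 5089 in vehicle and 2356 to 3932 in wildtype cords, and Prph and Tac1 among them were lower in ceftriaxone than in vehicle cords (limma adjusted p = 0.0299 and 0.012). The forebrain gene Neurod6 read 154 to 235 in ceftriaxone, 476 to 659 in vehicle and 75.9 to 126 in wildtype cords (log2 -1.51 between the SMA groups, limma adjusted p = 7.32e-05). The 8 Hox genes summed to 6343 to 6859 in ceftriaxone, 8581 to 11160 in vehicle and 4385 to 5201 in wildtype cords. Hoxa9, Hoxc6 and Hoxc8 among them did not pass between the SMA groups (limma adjusted p = 0.644, 0.299 and 0.0516). The 1 Schwann cell gene measured, Pmp22, read 3421 to 9095 in ceftriaxone, 764 to 4545 in vehicle and 6013 to 10533 in wildtype cords. No marker gene was at exactly 0, and the part of these shifts in the members' difference was not tested.

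In the SMA vehicle cords, every probe set had a higher mean than in wildtype cords, the contrast by which the genes had been picked. For 20 of the 21 all 4 vehicle arrays lay above all 4 wildtype arrays, as for 22.9% of probe sets tested, and 24.9% of those were called higher and 22.3% lower. The log2 differences ran from 0.55 (Stmn2, 1423280_at) to 2.95 (Dcx, 1418139_at), with a median of 1.51. Crmp1 was 5.13 times and Gap43 4.01 times its wildtype mean, while Basp1 was 1.81 and Stmn1 (1415849_s_at) 1.59 times. Without wildtype array 2 the log2 differences of the Cd24a probe sets were 1.27, 1.38 and 1.04, in place of 1.07, 1.14 and 0.80.

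Against wildtype, 5 of the 19 probe sets above the filter were higher in SMA ceftriaxone cords and 14 did not pass. Among the 14 is St8sia2 1420377_at, which was above the filter only through the vehicle arrays. At an unadjusted p under 0.05, 12 of the 19 were higher, that probe set among them, and 0 lower. The share of all probe sets at that unadjusted threshold was not computed, so this count has no baseline. Limma called 0 lower after adjustment, where it called 3.29% of all probe sets tested higher and 0.928% lower. The 5 were those of Crmp1, Gap43 and Basp1 and 2 of the 3 of Dpysl3, which makes 4 genes. For 8 of the 21 probe sets all ceftriaxone arrays lay above all wildtype arrays (7.68% of those tested), and for 18 of 21 the difference was positive. The median over the 21 was 0.44, with a range of -0.15 to 1.02, beside 0.01 over all probe sets tested. The wildtype arrays too were part of the choice of genes. The count rests on single arrays: it was 1 (Crmp1) without SMA ceftriaxone array 3 and 3 without wildtype array 3, and 5 without wildtype array 2. Across all probe sets, those called numbered 572 with all arrays and 1436 without wildtype array 2.

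**Figure D2:**
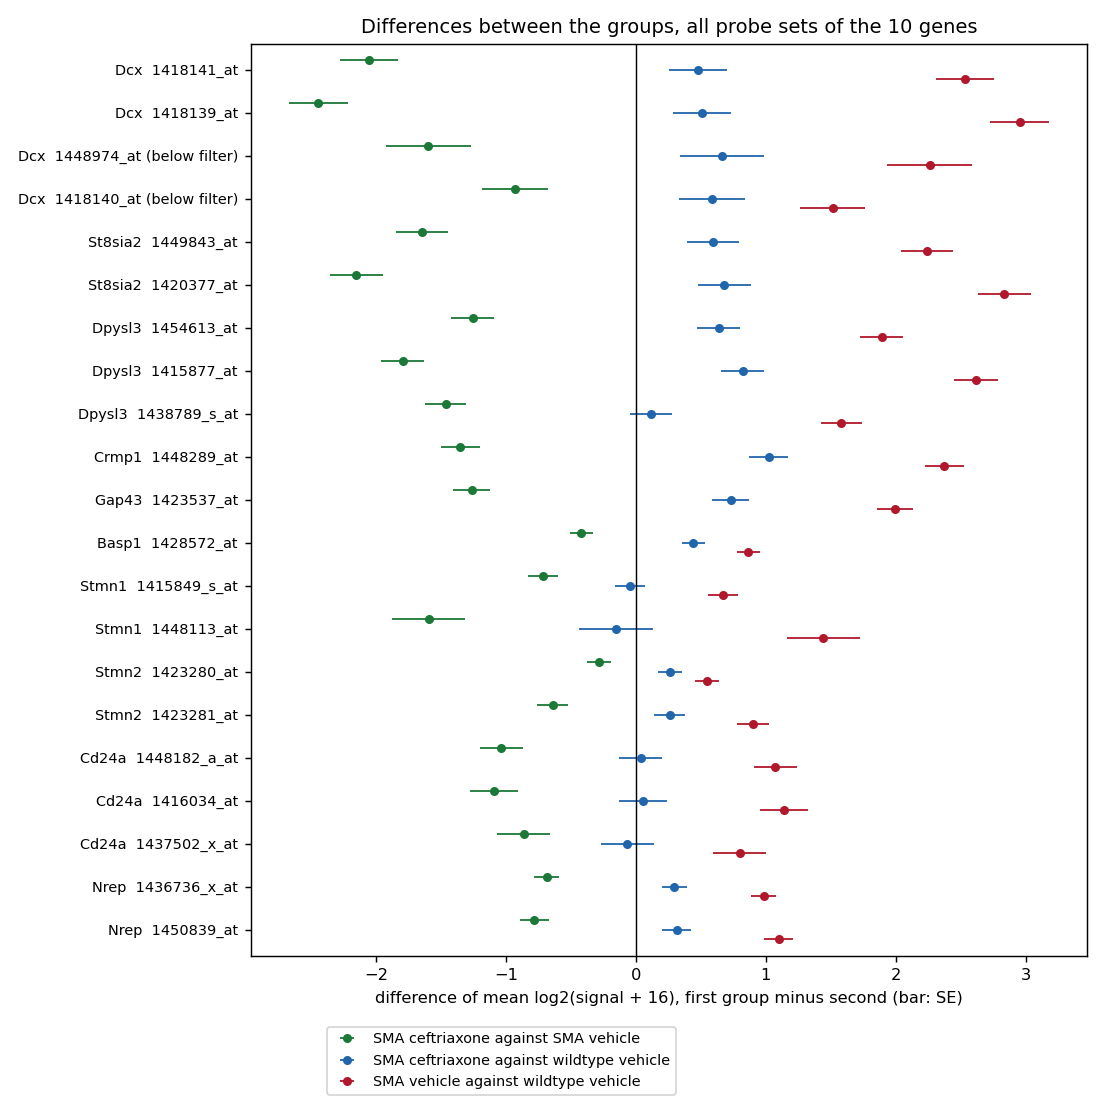
Difference of mean log2(signal + 16) with its SE (horizontal axis) for each of the 21 probe sets (rows), in SMA ceftriaxone against SMA vehicle, SMA ceftriaxone against wildtype and SMA vehicle against wildtype cords. The first comparison runs from -2.45 to -0.28, the second from -0.15 to 1.02, and the third, by which the genes were chosen, from 0.55 to 2.95.

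The arrays of a group were not alike in these genes. Among the SMA vehicle cords, arrays 3 and 4 both read above arrays 1 and 2 for 19 of the 21 probe sets and for the brightest probe set of all 10 genes, an order that 23.9% of the probe sets tested had. Array 4 was the highest for 8 genes and array 1 the lowest for 9. The coefficient of variation in this group was 39.3% for Dcx and 30.3% for St8sia2, and from 5.33% to 13.2% for the other 8 genes. Along the same arrays, 1 to 4, the oligodendrocyte gene Mog read 1187, 993, 298 and 177, and the muscle gene Acta1 read 1139.9, 2045, 3430.2 and 2697. Xist was high on arrays 1 and 4, which stand at the low and the high end of the members' order.

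Among the SMA ceftriaxone cords, arrays 1 and 3 both read above arrays 2 and 4 for 15 of the 21 probe sets and for all 10 genes by the brightest probe set, an order that 23.7% of the probe sets tested had. Mog read 4539, 6418, 5108 and 6122 on ceftriaxone arrays 1 to 4, and the dividing cell markers summed to 7407, 5095, 6789 and 5081. Thus the arrays with the higher members had the lower Mog and the higher sum of dividing cell markers. The part of cell makeup in this order was not tested. Among the wildtype cords, array 2 was the lowest for 8 of the 10 genes and the highest for Stmn1 and Cd24a.

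**Figure D3:**
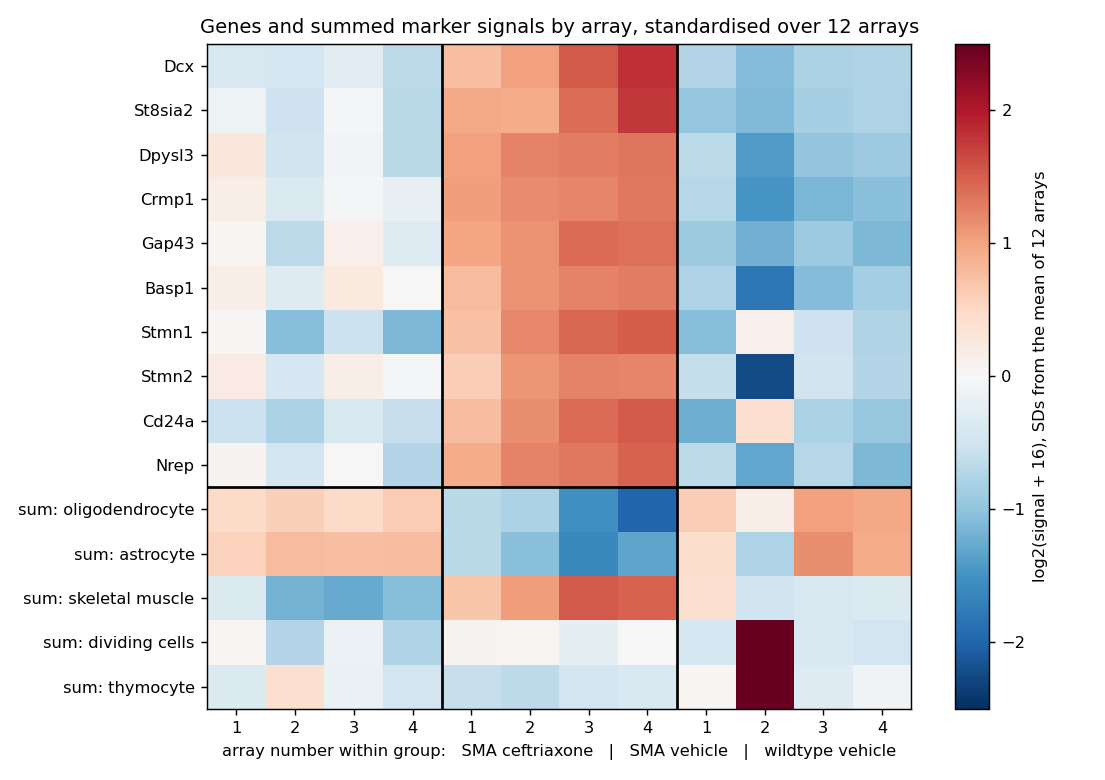
Standardised log2(signal + 16) of the brightest probe set of each gene and of 5 summed marker lists (rows) on the 12 arrays (columns, grouped as SMA ceftriaxone, SMA vehicle and wildtype), in standard deviations from the mean of the 12 arrays. The 10 genes are highest on the 4 SMA vehicle arrays, where the oligodendrocyte sum is lowest, and wildtype array 2 stands out in the thymocyte and dividing cell sums.

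All 4 SMA ceftriaxone arrays had a high Xist signal, and the vehicle arrays 1 and 4 with a high Xist signal allow a comparison within it. For 21 of 21 probe sets both of these vehicle arrays lay above all 4 ceftriaxone arrays, as for 28.8% of the probe sets tested. These vehicle values too had entered the choice of the genes. Dcx (1418141_at) read 400.3 to 548 on the ceftriaxone arrays, 1308 and 3203 on these vehicle arrays and 1662 and 2506.5 on the vehicle arrays of low Xist signal. In a limma fit of the arrays of high Xist signal alone, 19 member probe sets were lower in ceftriaxone cords, where 16.7% of those tested were. St8sia2 1420377_at, above the main filter only through the vehicle arrays, counts here as a description alone. Against wildtype, with Xist signal as a covariate, 2 member probe sets were higher, of Crmp1 and Dpysl3 (1415877_at), in place of 5 (limma adjusted p = 0.0367 for both), where 0.479% of all probe sets tested were called higher.

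The members followed each other closely over the 12 arrays: the Pearson r of each gene with the mean standardised profile of the other 9 was 0.831 for Cd24a, 0.851 for Stmn1, 0.888 for Stmn2, 0.94 for Basp1 and 0.972 to 0.99 for the other 6. These r include the differences between the 3 groups for which the genes were chosen, and they describe these arrays alone. Of 7994 genes compared with the mean profile of all 10, the closest were Dlgap4, a scaffold protein of synapses, Enc1, an actin-binding protein of the nervous system, the peptidase gene Nln and Prss12, a protease of synapses, each with r = 0.994, followed by Mmd with r = 0.992. Enc1 read 4396.5, 3241, 3870 and 3275 in SMA ceftriaxone, 6709, 7340.2, 8710 and 8890.3 in SMA vehicle and 2593.5, 1948, 2677 and 2439.9 in wildtype cords. As in the members, vehicle arrays 3 and 4 and ceftriaxone arrays 1 and 3 were the higher ones of their groups. Since Enc1 was picked for its likeness to the members over these same arrays, this shared order follows in part from the choice.

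Other genes of the same processes, in 6 lists of 78 genes of which 68 were above the filter, moved with the members in part. In SMA ceftriaxone against SMA vehicle cords 24 of the 68 fell and 7 rose by limma, where 17.7% and 18.3% of all probe sets tested did. Against wildtype 2 rose and 1 fell in ceftriaxone cords, a share near that of all probe sets tested (3.29% higher and 0.928% lower), and 28 rose and 8 fell in vehicle cords (24.9% and 22.3% of all). The 2 that rose in ceftriaxone cords were Ncam1 and Dpysl4, and the one that fell was Nefh.

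Among 12 partners of doublecortin and polysialic acid, 6 fell and 1 rose in SMA ceftriaxone against SMA vehicle cords (median log2 -0.31, beside -0.01 over all probe sets tested). Ncam1, the neural cell adhesion molecule that carries polysialic acid, averaged 2511 ± 339 in ceftriaxone, 4913 ± 252 in vehicle and 1531 ± 236 in wildtype cords (SD, n = 4 each). It fell by 0.97 against vehicle (limma adjusted p = 7.77e-05) and was higher than wildtype by 0.71 (adjusted p = 0.00609). Cdk5r1, an activator of the kinase that phosphorylates doublecortin, and the tubulin gene Tubb2b fell by 0.86 and 1.06 against vehicle. The gene that rose was Nde1, a dynein regulator of dividing neural precursors and other cells, at 498 ± 69.0 in ceftriaxone, 255 ± 55.4 in vehicle and 611 ± 93.1 in wildtype cords (limma adjusted p = 0.000533 against vehicle).

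Of 4 relatives of the collapsin response mediators and stathmins measured, 3 fell against vehicle (median log2 -0.68) and Stmn3 did not pass. Dpysl5 averaged 562 ± 143 in ceftriaxone, 1797 ± 180 in vehicle and 462 ± 69.1 in wildtype cords, a log2 difference of -1.68 ± 0.15 between the SMA groups. Dpysl4, at 1206 ± 100 in ceftriaxone, 2043 ± 103 in vehicle and 779 ± 91.4 in wildtype cords, was lower than vehicle by 0.76 and stayed above wildtype by 0.62 (limma adjusted p = 0.00389 against wildtype).

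In the semaphorin 3 list 6 of 10 measured genes fell and 2 rose against vehicle (median log2 -0.44). The semaphorin coreceptor gene Nrp1 averaged 854 ± 92.6 in ceftriaxone, 1213.5 ± 51.1 in vehicle and 873 ± 103 in wildtype cords. The receptor gene Plxna3 fell by 0.76 and Nrp2 by 0.43. The ligand gene Sema3b went the other way, at 196 ± 35.0 in ceftriaxone, 78.6 ± 37.2 in vehicle and 212 ± 105 in wildtype cords (log2 1.23 ± 0.30 against vehicle, limma adjusted p = 0.00647). Sema3a, the ligand whose signal the collapsin response mediators carry, fell by 0.45 (limma adjusted p = 0.0143).

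Of 16 further genes of the growth cone membrane and actin, 6 fell in ceftriaxone against vehicle cords, 0 rose and 10 did not pass (median log2 -0.18). Gprin1, a growth cone protein that binds G proteins, averaged 362 ± 67.6 in ceftriaxone, 957 ± 128 in vehicle and 309.6 ± 22.4 in wildtype cords. Dbn1, which encodes the actin-binding drebrin, averaged 1034 ± 90.8 in ceftriaxone, 2627 ± 362 in vehicle and 794 ± 131 in wildtype cords. The adhesion molecule gene L1cam and the actin regulator gene Evl fell by 0.94 and 0.82. All 4 passed against vehicle (limma adjusted p = 3.69e-05 to 0.000294), and limma called 0 of the 16 against wildtype, with 5 at an unadjusted p under 0.05. The share of all probe sets at that unadjusted threshold was not computed, so the count of 5 has no baseline.

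Of 15 genes of mature neurons measured, 4 rose and 3 fell in SMA ceftriaxone against SMA vehicle cords, near the 18.3% and 17.7% of all probe sets, with a median of 0.10. Nefh, the heavy neurofilament gene, averaged 4634 ± 338 in ceftriaxone, 2920 ± 437 in vehicle and 7429 ± 1499 in wildtype cords. It was higher than vehicle by 0.67 and lower than wildtype by limma (log2 -0.66, adjusted p = 0.0249). Thy1, a surface protein of mature neurons and of thymocytes, rose by 0.50 against vehicle, while the dendritic gene Map2 and the synaptic vesicle gene Syt1 fell by 0.93 and 0.68. Of the 11 genes of dividing cells limma called 0 in each comparison. At an unadjusted p under 0.05 there were 0 in SMA ceftriaxone against SMA vehicle and 1 in each comparison with wildtype cords. For that threshold too the share of all probe sets was not computed. Wildtype array 2 had by far the highest sum of these genes, and the groups share 1 estimate of the spread. Their SEs ran from 0.20 (Mcm2) to 0.68 (Top2a), beside a median of 0.12, so only large differences could pass. Without that array the wildtype sums were 5767 to 5976, beside 6466 to 7522 in vehicle and 5081 to 7407 in ceftriaxone cords.

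**Figure D4:**
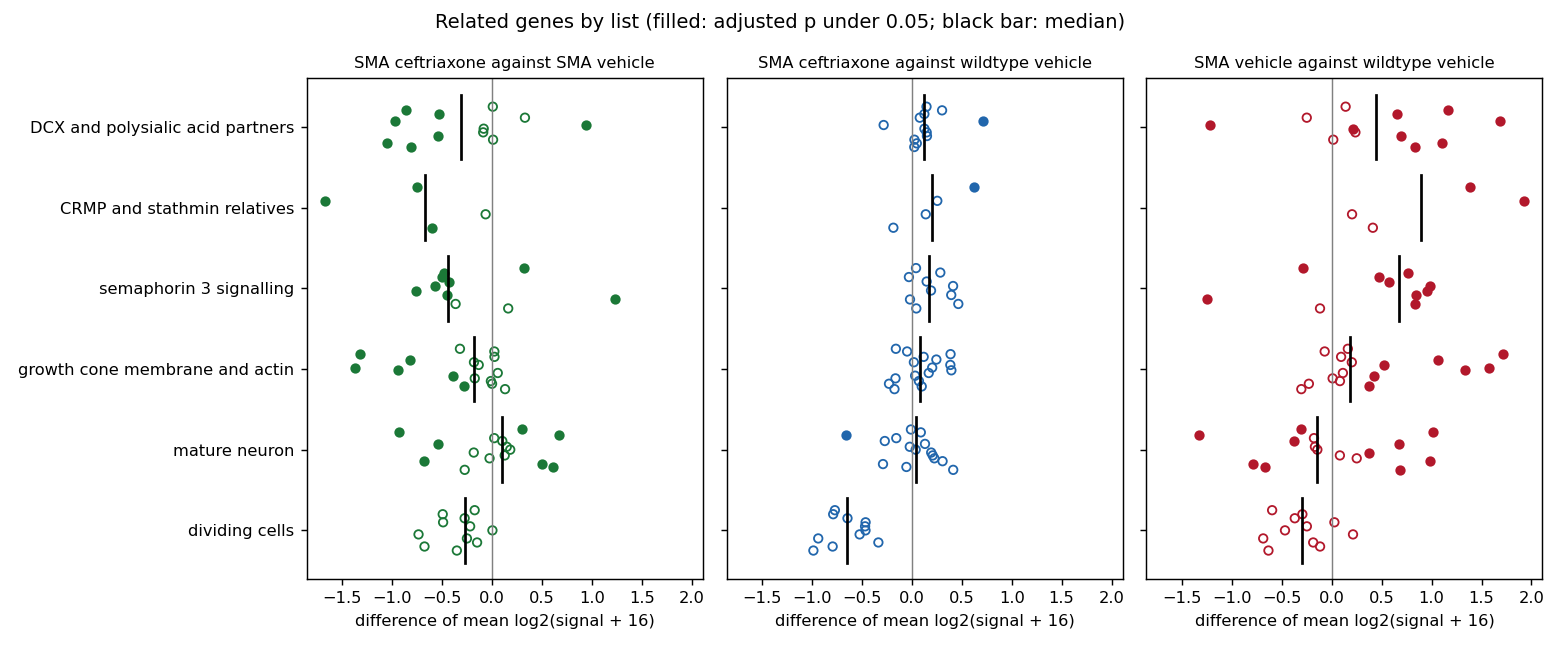
Difference of mean log2(signal + 16) (horizontal axis) of each measured gene of the 6 related lists (rows), in the 3 comparisons (panels, first group minus second). Filled points passed limma's adjusted p of 0.05 and black bars are list medians, which in SMA ceftriaxone against SMA vehicle run from -0.68 for relatives of the collapsin response mediators and stathmins to 0.10 for mature neurons.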

How the data were processed

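Spinal cord RNA of 12 mice was measured, 1 array per mouse and 4 arrays in each of 3 groups, which were taken from the labels. Per the submitters' processing notes the deposited intensity values come from MAS5 (version not given in the sources used here), and they are linear signals of probe sets. The authors had scaled the arrays: the trimmed mean signal (2% off each end) was 700.2 to 700.3 on every array. Detection calls were not used here.

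Probe sets were named from the platform annotation of 2016 (20393 with 1 symbol, 691 with several, 1606 with none), with symbols updated through the mouse RefSeq table of build GRCm38.p6, where 20364 matched. After removal of 64 control probe sets, log2(signal + 16) was modelled in R 4.3.3 by limma 3.58.1, with lmFit and a trended eBayes, over all 12 arrays, with a mean per group and 9 residual degrees of freedom. The 13575 probe sets whose mean log2 signal lay above the 40th percentile, equal to a geometric mean signal of 125 or more, were tested, two-sided, with Benjamini-Hochberg adjustment over all of them and a threshold of 0.05. The fit was tested on simulated data. Of the 21 member probe sets 19 passed the filter. The number of arrays limits the precision: the median SE of a log2 difference was 0.12. The labels do not say that the mice came from separate litters, and p-values measure only the spread between these mice.

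The members and all gene lists were chosen with earlier results of these data known. Named were every member probe set, at most the 4 genes of smallest p in each related list and comparison, the 5 genes closest to the members' mean profile, the markers given beside a result, and Smn1 and Xist. A gene of several probe sets stands in its list by the brightest one above the filter. The alternatives changed the offset (1 or 64), the scaling (quantiles or median centring), the filter (none, or the 60th percentile) or the eBayes trend, used array quality weights, or restricted the fit to 2 groups. Others added the replicate number as a block, or Xist or the Gapdh ratio as a covariate, or left out each array in turn. Chosen after seeing the data were the arrays of high Xist signal alone, and Xist as a covariate without wildtype array 2.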

Additional observations from a re-analysis of the deposited data

Results flagged for a closer look

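In 2 of 63 sets of 4 arrays tested (the member probe sets in each group), 1 array stood far from the other 3 by Dixon's ratio of its gap to the whole range, above the critical value for 4 samples. Chance flags about 1 in 20 such sets. Both cases are wildtype array 2, the array with strong thymocyte markers, at its low end. For Dcx (1418141_at) it read 276, against 357 to 370.2 on the other wildtype arrays, a ratio of 0.873. For Stmn2 (1423280_at) it read 7482, against 9849 to 10289.5, a ratio of 0.863.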

How the results depend on the processing

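No member difference changed direction with its call under any alternative. In the main fit 19 member probe sets were lower in SMA ceftriaxone than in SMA vehicle cords. Among these is St8sia2 1420377_at, above the filter only through the vehicle arrays, so 18 are taken as calls. That probe set is part of the counts that follow wherever it was tested. Over 26 settings the count was 16 to 20 (the filter sets how many could be tested), and 18 to 19 when single arrays were left out. The calls lost there were those of Stmn2 1423280_at, at adjusted p from 0.0548 (no filter) to 0.0929 (without SMA ceftriaxone array 2); 0.0764 came with median centring and 0.0648 with Xist as a covariate. Between SMA ceftriaxone and wildtype cords the counts depended on the setting. Of all probe sets 572 were called, against 239 with median centring, 1826 with array quality weights, 105 in a fit of only the 2 groups, 80 with Xist and 213 with the Gapdh ratio as a covariate, and 164 to 1436 when single arrays were left out. The 5 member probe sets higher became 3 with median centring, 2 in the fit of the 2 groups, 2 with Xist, 3 with the Gapdh ratio and 1 to 5 when single arrays were left out. The 4 member genes by the brightest probe set became 2, 1 and 1 with median centring, the fit of 2 groups and Xist, and 1 to 4 when single arrays were left out. The 3 related genes called became 11 with array quality weights, 5 with Xist without wildtype array 2, and 2 to 9 when single arrays were left out. When single arrays were left out, probe sets called ran from 3729 to 6808 (4879 with all arrays) in SMA ceftriaxone against SMA vehicle and from 5502 to 7937 (6401) in SMA vehicle against wildtype cords. Related genes called ran from 26 to 42 (31) and from 32 to 47 (36) in the same comparisons, and member genes lower from 9 to 10 (10). The cause was not tested.

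Same-numbered arrays of different groups did not deviate together (correlations of deviations from -0.143 to 0.133, with 2 of 12 over 0.1), so the numbers are taken as names. With the replicate number as a block, 344 probe sets were called between SMA ceftriaxone and wildtype cords. Dpysl3 1454613_at and 1415877_at did not pass there (limma adjusted p = 0.0599 and 0.0557). St8sia2 1420377_at was at 0.0464, but it was above the filter only through the vehicle arrays, so this is not taken as a call.

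The groups had 4 mice each, unequal in sex by Xist and Eif2s3y, of bulk tissue, with strong thymocyte markers on 1 array. Among the 5 member probe sets higher in SMA ceftriaxone than in wildtype cords, that of Crmp1 kept its call in all settings that tested it (highest adjusted p = 0.0367), and those of Gap43, Basp1 and Dpysl3 lost theirs in some. Signal above background could not be judged for the dim Dcx probe sets.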
